A study of Mus musculus with 9 samples.

Results

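The genes described here are immediate-early and stress response genes of the embryonic mouse kidney, 45 genes named on a list and found by symbol, not by their measured values. On the Affymetrix MOE430A array, where a probe set is a group of short probes for 1 transcript, 42 of the 45 had at least 1 probe set that carries their symbol alone. Of these, 36 passed a filter on low signal and were tested among 7998 genes, and 6 were too dim to test. Another 2, Cyr61 and Ctgf, were matched only by their newer symbols Ccn1 and Ccn2, and are described on their own and left out of the members' counts. Dusp5 was not matched and is not analysed here. All samples were wild-type, of strain 129, taken at stage E14.5, in days of embryonic development (Theiler stage 22), of unknown sex and with no treatment named. Renal vesicles, the first epithelial balls of forming nephrons, and s-shaped bodies, their later folded stage, were each sampled as 3 pools of 20 structures. The collecting duct, the branched duct system that arises from the ureteric bud and drains the nephrons, was sampled 3 times with a labelled pool size of 1, and it was the submitters' reference sample. Structures were cut out by their shape, and their RNA was amplified in 2 rounds before hybridization, with 1 sample per array. The labels call each such pool a biological replicate but do not say whether pools came from separate embryos, so p-values measure the spread between these samples.

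Immediate-early genes are transcribed within minutes of a growth factor, calcium, mechanical or stress signal, without new protein synthesis, by factors such as SRF and CREB that already sit on their promoters. Their products are transcription factors of the AP-1, EGR, NR4A and KLF families, followed by phosphatases, RNA-binding proteins and other inhibitors that shut the response down, while heat shock genes answer to HSF1 when proteins unfold. In the developing kidney, GDNF acts through the RET receptor to drive ureteric branching, and such receptors signal through MAP kinases, a route that also switches on this gene class. On these arrays Ret was too dim to test, and the part of this route in the members' levels was not tested. Handling of fresh tissue is also known to induce many of these genes. How long each structure was handled is not given in the sources used here, and the structures differ in pool size, so handling and structure cannot be told apart.

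The stretches upstream of a few members show the kinds of element through which the class is known to be switched on, and are shown for members that hold such matches and were called against the collecting duct. They were chosen by their motifs, not by the size of the difference: Klf6 and Hspa1b, which also have large differences, hold none of the searched motifs in this window. Each is the 250 bases before the gene's start in RefSeq on build GRCm38.p6, read 5' to 3' on the gene's strand, with matches to the searched motifs in capitals. Fos (chr12:85473640-85473889, plus strand) holds TGACGT, the core of a cyclic AMP response element, at -66 to -61 from the start, and TATAAA at -33 to -28. Zfp36 (chr7:28379229-28379478, minus strand) holds GCGNGGGCG, the EGR motif, at -105 to -97, and a CArG box, the site of SRF, at -58 to -49. Btg2 (chr1:134079156-134079405, minus strand) holds TGACGT on both strands, overlapping between -166 and -159, and the EGR motif at -131 to -123.
Fos: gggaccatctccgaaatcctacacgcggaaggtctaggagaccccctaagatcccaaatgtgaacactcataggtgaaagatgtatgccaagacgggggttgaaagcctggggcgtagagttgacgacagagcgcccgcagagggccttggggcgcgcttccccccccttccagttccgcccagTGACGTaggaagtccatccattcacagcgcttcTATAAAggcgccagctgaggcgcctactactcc
Zfp36: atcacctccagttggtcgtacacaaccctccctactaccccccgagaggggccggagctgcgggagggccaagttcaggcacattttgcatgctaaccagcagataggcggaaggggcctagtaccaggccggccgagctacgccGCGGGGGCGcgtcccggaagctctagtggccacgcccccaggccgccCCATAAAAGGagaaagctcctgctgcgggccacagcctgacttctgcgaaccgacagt
Btg2: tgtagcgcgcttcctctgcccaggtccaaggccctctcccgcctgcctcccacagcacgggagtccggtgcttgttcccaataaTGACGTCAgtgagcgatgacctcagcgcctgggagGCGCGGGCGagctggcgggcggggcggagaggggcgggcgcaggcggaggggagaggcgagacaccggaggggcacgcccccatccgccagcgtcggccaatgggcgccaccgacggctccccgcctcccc
In Egr2 a CArG box and TGACGT on the other strand lie in the 22 bases at chr10:67537797-67537818 (plus strand).
Egr2: CCATATATGGgcagcgACGTCA

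Upstream sequence was matched for 32 of the 36 tested members and for 27025 genes in all, and both strands were searched. TGACGT was found in 7 of the 32 (21.9%; Atf3, Btg1, Btg2, Dusp1, Egr2, Fos and Maff) against 7.29% of all genes. The EGR motif GCGNGGGCG was found in 11 (34.4%) against 5.33%, and the CArG box in 2 (6.25%; Egr2 and Zfp36) against 1.62%. For the AP-1 motif TGANTCA the shares were 3.12% (Ddit3 alone) and 7.82%, for GGAATG, the TEAD motif, 12.5% and 14.4%, and for TATAAA 12.5% and 14.3%. The heat shock element (GAA, TTC and GAA, each 2 bases apart) was found in 0 of the 32 and in 0.514% of all genes. These shares are descriptions without a test, a match is not a known binding site, and a missing match says only that these letters are not in this window.

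The 2 genes Hspa1a and Hspa1b, which encode inducible HSP70, are near-identical copies, and their upstream stretches are shown because probe sets for such copies may share signal. Over 250 bases they differed at 3 positions (98.8% identity), at -207, -204 and -2 from the start, which are in capitals. Hspa1a lies at chr17:34972157-34972406 and Hspa1b at chr17:34959239-34959488, both on the minus strand.
Hspa1a: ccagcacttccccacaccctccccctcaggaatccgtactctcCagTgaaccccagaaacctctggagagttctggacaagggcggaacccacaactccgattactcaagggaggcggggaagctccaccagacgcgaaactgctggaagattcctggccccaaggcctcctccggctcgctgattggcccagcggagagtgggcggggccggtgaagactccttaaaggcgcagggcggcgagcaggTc
Hspa1b: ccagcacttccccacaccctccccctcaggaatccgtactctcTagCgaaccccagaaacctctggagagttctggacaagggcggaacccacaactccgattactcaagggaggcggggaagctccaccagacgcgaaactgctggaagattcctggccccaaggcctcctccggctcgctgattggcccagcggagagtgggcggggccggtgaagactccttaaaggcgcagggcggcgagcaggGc

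Levels below are log2 of the deposited intensity plus 26, after quantile normalization, differences are the first structure minus the second on that scale, and a fold is the difference turned back to a ratio. Every structure has 3 arrays, quoted in the order of replicates 1, 2 and 3. A member is called when its adjusted p in limma, over all 7998 genes, is under 0.05. The number of arrays limits the precision, and in bulk samples fewer cells of a type and less RNA per cell cannot be told apart. Arrays correlated at 0.939 to 0.982 within a structure and at 0.77 to 0.868 between structures, across genes, which are not replicates. Marker genes were set against the labels by their summed level on a linear scale. The 14 tested of 16 collecting duct and ureteric markers summed to 47100.4 to 53206 in the collecting duct and to 1712 to 1946 in the s-shaped body. In the renal vesicle they summed to 11365, 16098 and 3992, so replicate 3 stood apart, and it was also the highest of its structure in podocyte markers. Of the 14 collecting duct and ureteric markers, 10 were called lower in the renal vesicle than in collecting duct. Another 2, Wnt11 and Calb1, were called higher there, and neither was above the median in any collecting duct array. The 8 tested of 10 renal vesicle and nephron markers summed to 25589.9 to 26754 in the renal vesicle. S-shaped body arrays had sums of 5916 to 6632 for this list, and collecting duct arrays 2968 to 3722. All 8 were called lower in the later nephron stage than in the renal vesicle. Against the collecting duct, 6 were higher at that stage and Wnt4 was lower. Lhx1, Wnt4, Jag1 and Hes5 were above the median in no s-shaped body array. The 6 tested of 8 podocyte markers summed to 50799.5 to 51262 in the s-shaped body against 2496 to 9772 in the renal vesicle. Among markers of other cells, 4 of 8 urothelial markers summed to 12550.5 to 16054 in the collecting duct against at most 519 in the nephron structures, with Upk1a, Krt5 and Krt14 too dim to test. Stromal, endothelial, erythroid and leukocyte markers were highest in the s-shaped body, and their values are given with the members that were highest there.

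The members stood apart most between the nephron structures and the collecting duct. Of the 36 tested, 25 were lower in the renal vesicle than in collecting duct and 2 were higher, with 9 not called, where 15.9% of all genes tested were lower, 15.6% higher and 31.5% called in all. The arrays did not overlap for 29 members, 26 lower and 3 higher, against 22.1% and 21.2% of all genes, 43.3% together. The median difference was -1.34 over the members and 0.01 over all genes. Between s-shaped body and collecting duct, 19 were lower, 4 higher and 13 not called, where 15.9% of all genes were lower, 16.9% higher and 32.8% called. Here 18 lower and 5 higher members had arrays that did not overlap, against 22.6%, 21.3% and, together, 43.9% of all genes, and the medians were -0.87 and -0.03. The comparisons share arrays, so their counts are not independent of each other.

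Between the nephron stages the members differed in both directions. In the s-shaped body 13 of 36 were higher than in the renal vesicle and 4 lower, with 19 not called, where 18.5% of all genes were higher, 17.8% lower and 36.3% called. Arrays did not overlap for 15 higher and 6 lower members, against 26% and 26.9% of all genes, 52.9% together. The median difference was 0.12 over the members and -0.03 over all genes. The highest mean was in the collecting duct for 23 of the 36 members, in the s-shaped body for 8 and in the renal vesicle for 5, where the shares of all genes were 33.4%, 32.1% and 34.5%. In the most common set of calls, held by 14 members, both nephron structures were lower than the collecting duct and their difference from each other was not called. Another 5 were called in none of the 3 comparisons (Fosl2, Jund, Hspa8, Atf4 and Ddit3). With median centring in place of quantile normalization the median difference over all genes moved to 0.11 for the renal vesicle against the collecting duct, where 59.9% of calls were higher against 49.6%. It moved to -0.11 for the s-shaped body against the renal vesicle, with 43.6% of calls higher against 51%.

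**Figure D1:**
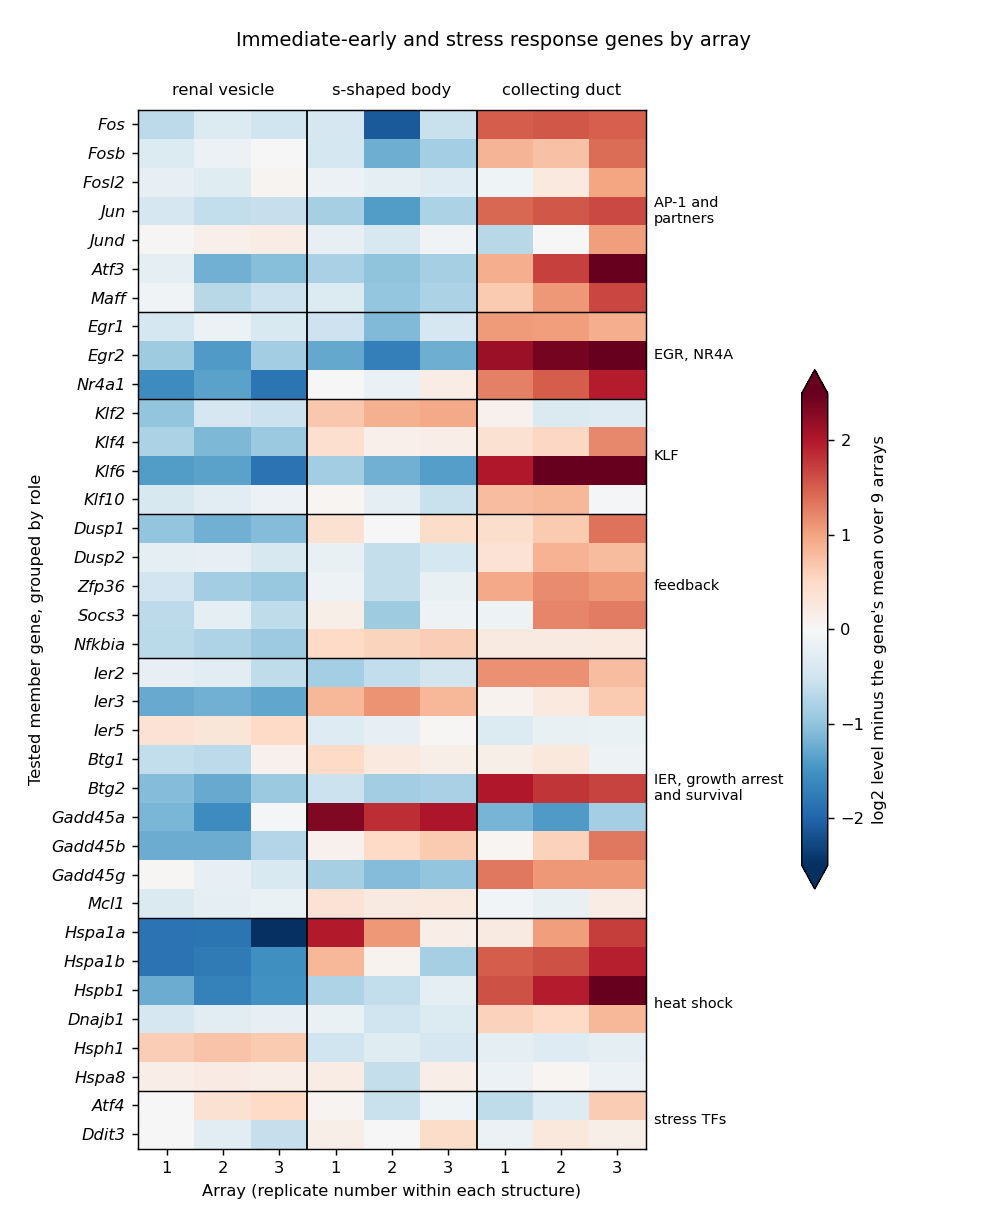
Heat map of the 36 tested members (rows, grouped by role) in the 9 arrays (columns, 3 per structure); colour gives the log2 level minus the gene's mean over the 9 arrays, from blue (below) to red (above), with the colour scale ending at values past its arrows. The collecting duct columns are above the mean for most rows, while Klf2, Ier3 and Gadd45a are highest in the s-shaped body and Ier5 and Hsph1 in the renal vesicle.

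AP-1 is the dimeric factor formed by FOS and JUN proteins. Of its 7 tested members and partners, 5 were lower in the renal vesicle and the same count in the s-shaped body than in collecting duct, and none was higher. Fos (probe set 1423100_at) read 11.91, 12.23 and 12.06 in the renal vesicle, 12.14, 10.47 and 12.01 in the s-shaped body, and 14.07, 14.11 and 14.05 in the collecting duct. All collecting duct arrays lay above all nephron arrays, within a narrow range, and s-shaped body replicate 2 was the lowest of all. Fos was 4.03-fold higher in the collecting duct than in the renal vesicle (difference -2.01, SE 0.33, adjusted p = 0.000618) and 5.8-fold higher than in the s-shaped body (-2.54, adjusted p = 7.22e-05). Jun, its usual partner, read 10.68, 10.49 and 10.52 in the renal vesicle, 10.28, 9.70 and 10.31 in the s-shaped body, and 12.53, 12.66 and 12.76 in the collecting duct. Its 3 structures did not overlap, the s-shaped body being lowest. The difference from the collecting duct was -2.09 (SE 0.18, adjusted p = 3.53e-06) in the renal vesicle and -2.55 (adjusted p = 3.96e-07) in the s-shaped body, while that between the nephron stages was not called (-0.46, adjusted p = 0.0632) except without collecting duct replicate 3 (-0.46, adjusted p = 0.0482).

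Fosb, a further FOS family member, read 7.45, 7.64 and 7.80 in the renal vesicle, 7.35, 6.57 and 6.94 in the s-shaped body, and 8.64, 8.53 and 9.20 in the collecting duct. The collecting duct was highest and the s-shaped body lowest, without overlap. The renal vesicle differed from the collecting duct by -1.16 (SE 0.24, adjusted p = 0.00322) and the s-shaped body by -1.83 (adjusted p = 8.11e-05). The s-shaped body was lower than the renal vesicle by a narrow margin (-0.68, adjusted p = 0.047), and that call was lost on leaving out any 1 of renal vesicle replicates 1 to 3, s-shaped body replicates 2 and 3, and collecting duct replicates 1 and 2 (adjusted p = 0.0512 to 0.189, the highest without s-shaped body replicate 2). Atf3, a stress-induced factor that pairs with JUN, read 8.38, 7.43 and 7.57 in the renal vesicle, 7.82, 7.62 and 7.80 in the s-shaped body, and 9.53, 10.34 and 11.15 in the collecting duct. Its collecting duct arrays were spread out but all above the others, and the nephron stages overlapped. Atf3 was 5.85-fold and 6.04-fold higher in the collecting duct than in renal vesicle and s-shaped body (SE of the log2 difference 0.35, adjusted p = 0.000165 and 9.81e-05). Maff, a small MAF protein, read 7.83, 7.24 and 7.39 in the renal vesicle, 7.58, 6.97 and 7.14 in the s-shaped body, and 8.59, 9.005 and 9.60 in the collecting duct. Again every collecting duct array exceeded every nephron array, with differences of -1.58 and -1.83 (SE 0.27, adjusted p = 0.000814 and 0.000196).

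The remaining AP-1 members were called in no comparison. Fosl2 read 7.59, 7.48 and 7.85 in the renal vesicle, 7.65, 7.56 and 7.47 in the s-shaped body, and 7.68, 8.03 and 8.77 in the collecting duct, and Jund, which is held to be expressed without a stimulus more than its relatives, read 10.88, 10.99 and 11.04 in the renal vesicle, 10.65, 10.46 and 10.76 in the s-shaped body, and 10.17, 10.84 and 11.90 in the collecting duct. For both, collecting duct replicate 1 was the lowest of its structure and replicate 3 the highest of all arrays. Without collecting duct replicate 1, Fosl2 was called lower in the renal vesicle (-0.76, adjusted p = 0.0323) and in the s-shaped body (-0.84, adjusted p = 0.0201). Jund was then called lower in the s-shaped body (-0.75, adjusted p = 0.0455). Fosl1 ranged from 5.93 to 7.99 over the arrays and Junb from 6.35 to 7.33, both above their array's median in only 1 array and therefore not tested.

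**Figure D2:**
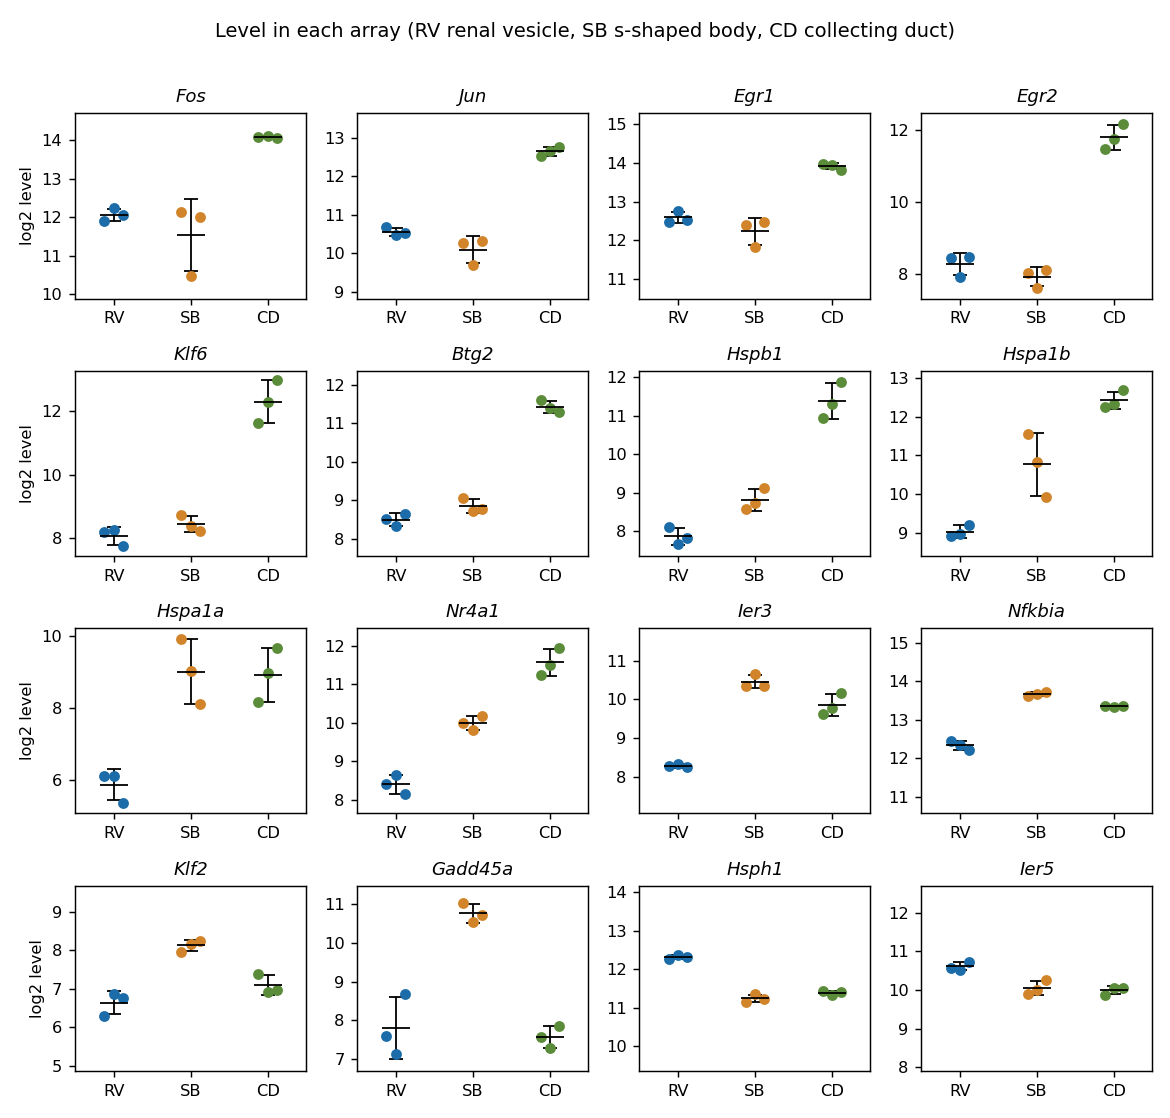
Log2 level of 16 members in each array (points), with the mean and SD of the 3 arrays of a structure (bars); RV is renal vesicle, SB s-shaped body and CD collecting duct, and each panel has its own vertical scale. In the panels of Fos, Jun, Egr1, Egr2, Klf6, Btg2, Hspb1, Hspa1b and Nr4a1 the 3 collecting duct points lie above all others, whereas Klf2, Gadd45a, Ier3 and Nfkbia peak in the s-shaped body and Hsph1 and Ier5 in the renal vesicle.

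The EGR zinc finger factors and the orphan nuclear receptor NR4A1 are among the first genes to answer growth factor signals, and all 3 tested members were lower in both nephron structures than in collecting duct. Egr1 read 12.48, 12.75 and 12.53 in the renal vesicle, 12.38, 11.81 and 12.48 in the s-shaped body, and 13.96, 13.95 and 13.82 in the collecting duct. The collecting duct arrays lay within a narrow range above the rest, and the nephron stages overlapped. Egr1 was 2.5-fold higher in the collecting duct than in the renal vesicle (difference -1.32, SE 0.17, adjusted p = 8.03e-05) and 3.22-fold higher than in the s-shaped body (adjusted p = 6.01e-06). Egr2 read 8.44, 7.93 and 8.47 in the renal vesicle, 8.05, 7.63 and 8.12 in the s-shaped body, and 11.48, 11.73 and 12.16 in the collecting duct. No nephron array came near the collecting duct, and the folds were 11.4 against the renal vesicle and 14.51 against the s-shaped body (SE 0.23, adjusted p = 3.47e-07 and 9.29e-08). A dimmer Egr2 probe set (1427682_a_at) gave smaller differences of -1.92 and -2.37, where the probe set shown gave -3.51 and -3.86. The nephron stages were not called apart in Egr1 (-0.36, adjusted p = 0.111) or Egr2 (-0.35, adjusted p = 0.257).

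Nr4a1 set all 3 structures apart. It read 8.42, 8.66 and 8.16 in the renal vesicle, 9.9999, 9.82 and 10.17 in the s-shaped body, and 11.24, 11.51 and 11.95 in the collecting duct. The renal vesicle was lowest, the s-shaped body between and the collecting duct highest, with no overlap. The s-shaped body was 3-fold above the renal vesicle (difference 1.59, SE 0.21, adjusted p = 0.000105). Against the collecting duct the differences were -3.16 in the renal vesicle (adjusted p = 4.18e-07) and -1.57 in the s-shaped body (adjusted p = 8.62e-05). Egr3 (5.65 to 7.38) and Nr4a2 (6.30 to 7.44) were too dim to test.

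KLF factors bind GC-rich promoters, and several are induced as immediate-early genes. Of the 4 members, 3 were lower in the renal vesicle than in collecting duct. Against the s-shaped body, Klf6 and Klf10 were higher in the duct and Klf2 was lower. Klf6, which has the largest difference of any member against the renal vesicle, read 8.20, 8.27 and 7.75 in the renal vesicle, 8.74, 8.39 and 8.23 in the s-shaped body, and 11.61, 12.26 and 12.95 in the collecting duct. The collecting duct was 18.3-fold above the renal vesicle (SE 0.29, adjusted p = 6.12e-07) and 14.1-fold above the s-shaped body (adjusted p = 7.81e-07), although its own arrays were spread more widely than those of the nephron. Dimmer Klf6 probe sets gave smaller differences, called among all kept probe sets. In the renal vesicle they were -1.67 (1418280_at) and -2.63 (1427742_a_at), where the probe set shown gave -4.20. In the s-shaped body they were -1.43 and -2.47, against -3.82. Klf4, a factor of differentiating epithelia, read 8.30, 7.97 and 8.17 in the renal vesicle, 9.52, 9.23 and 9.27 in the s-shaped body, and 9.48, 9.61 and 10.30 in the collecting duct. The renal vesicle arrays were the lowest, while s-shaped body and collecting duct overlapped. Klf4 was lower in the renal vesicle than in collecting duct (-1.65, SE 0.22, adjusted p = 0.000118) and than in the s-shaped body, where it was 2.28-fold higher (adjusted p = 0.00113). A dimmer probe set of Klf4 (1417395_at) gave 0.39 for the second of these, which was not called among all kept probe sets (adjusted p = 0.288).

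Klf10, a TGF-beta induced factor, read 9.08, 9.22 and 9.33 in the renal vesicle, 9.53, 9.23 and 8.91 in the s-shaped body, and 10.24, 10.31 and 9.44 in the collecting duct. Collecting duct replicate 3 stood below its other arrays and inside the range of the s-shaped body. Its differences of -0.79 in the renal vesicle (SE 0.24, adjusted p = 0.0257) and -0.78 in the s-shaped body (adjusted p = 0.0265) were no longer called without 1 of several arrays. Those were renal vesicle replicate 1 or 2 and collecting duct replicate 1 or 2 for the first (adjusted p = 0.0642 to 0.111). For the second they were s-shaped body replicate 2 or 3 and collecting duct replicate 1 or 2 (adjusted p = 0.07 to 0.114). Klf2, known as the flow-induced KLF of endothelium, read 6.31, 6.87 and 6.75 in the renal vesicle, 7.96, 8.17 and 8.24 in the s-shaped body, and 7.39, 6.92 and 6.97 in the collecting duct. The s-shaped body was above all other arrays. Outside it only collecting duct replicate 1 was above its array's median of 7.28, so Klf2 passed the filter through the s-shaped body, no fold is given, and it was not tested under a stricter filter (above the median in all 9 arrays). The differences were 1.48 from the renal vesicle (SE 0.22, adjusted p = 0.000278) and 1.03 from the collecting duct (adjusted p = 0.00339). Endothelial markers were also highest in the s-shaped body, where all 8 tested of 10 were higher than in either other structure. They summed to 23847 to 27822 there, 4818 to 9243 in the renal vesicle and 441 to 631 in the collecting duct, with Pecam1 and Tie1 too dim to test. Between those last structures Klf2 had the other order, each renal vesicle array being below each collecting duct array (-0.45, not called, adjusted p = 0.146). The part of endothelial cells in the Klf2 result was not tested.

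Feedback inhibitors end the response: DUSP1 and DUSP2 remove phosphate from MAP kinases, ZFP36 destroys AU-rich mRNAs, SOCS3 blocks cytokine receptors and NFKBIA (IkB-alpha) holds NF-kB in the cytoplasm. All 5 tested were lower in the renal vesicle than in collecting duct, and in the s-shaped body 3 were lower and Nfkbia higher. Dusp1 read 9.78, 9.55 and 9.67 in the renal vesicle, 11.14, 10.75 and 11.21 in the s-shaped body, and 11.19, 11.41 and 12.12 in the collecting duct. The renal vesicle lay apart below, while the s-shaped body overlapped with the collecting duct. Dusp1 was 3.75-fold higher in the collecting duct than in the renal vesicle (difference -1.91, SE 0.23, adjusted p = 5.53e-05) and 2.58-fold higher in the s-shaped body than in the renal vesicle (adjusted p = 0.000626). The s-shaped body did not pass the test against the collecting duct (-0.54, adjusted p = 0.0943), but did without collecting duct replicate 1 (-0.74, adjusted p = 0.0293).

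Dusp2 read 8.33, 8.35 and 8.14 in the renal vesicle, 8.37, 7.96 and 8.10 in the s-shaped body, and 8.92, 9.42 and 9.33 in the collecting duct. Only the collecting duct stood apart, 1.93-fold and 2.11-fold above renal vesicle and s-shaped body (SE 0.19, adjusted p = 0.00208 and 0.000677). Zfp36 read 8.55, 8.17 and 8.07 in the renal vesicle, 8.89, 8.43 and 8.84 in the s-shaped body, and 9.97, 10.20 and 10.11 in the collecting duct. The collecting duct was again highest in every array, with differences of -1.83 for the renal vesicle (SE 0.19, adjusted p = 1.59e-05) and -1.37 for the s-shaped body (adjusted p = 0.000114). The nephron stages were not called apart (0.46, adjusted p = 0.0771) unless renal vesicle replicate 1 or s-shaped body replicate 2 was left out (0.60 and 0.61, adjusted p = 0.0454 and 0.0448). Socs3 read 8.92, 9.35 and 8.93 in the renal vesicle, 9.72, 8.69 and 9.45 in the s-shaped body, and 9.45, 10.80 and 10.85 in the collecting duct. Collecting duct replicate 1 was lower than its other arrays and lay among those of the s-shaped body. The difference of -1.30 in the renal vesicle (SE 0.36, adjusted p = 0.0156) lost its call without renal vesicle replicate 1 or collecting duct replicate 2 (adjusted p = 0.0531 and 0.0721). That of -1.08 in the s-shaped body (adjusted p = 0.0357) lost it without s-shaped body replicate 2 or 3 or collecting duct replicate 2 or 3 (adjusted p = 0.0658 to 0.157). A dimmer Socs3 probe set (1456212_x_at) gave -0.71 in the renal vesicle, not called among all kept probe sets (adjusted p = 0.07). In the s-shaped body it gave -0.78, which was called (adjusted p = 0.047).

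Nfkbia read 12.44, 12.35 and 12.22 in the renal vesicle, 13.62, 13.67 and 13.73 in the s-shaped body, and 13.34, 13.33 and 13.35 in the collecting duct. The 3 structures did not overlap, and the order differed from that of most members: the renal vesicle was lowest and the s-shaped body highest. Against the renal vesicle the s-shaped body was 2.52-fold higher (difference 1.34, SE 0.11, adjusted p = 2.2e-06) and the collecting duct 2.01-fold higher (adjusted p = 1.76e-05). The step from collecting duct to s-shaped body was small (0.33, adjusted p = 0.0309) and was lost without renal vesicle replicate 2, any 1 of the s-shaped body arrays, or collecting duct replicate 1 or 2 (adjusted p = 0.0516 to 0.101). The same call was lost with median centring, no further normalization, no filter or no intensity trend (adjusted p = 0.0522 to 0.126). It was also lost with probe sets chosen by largest variance or averaged (adjusted p = 0.0539 and 0.0714). Of its 3 dimmer probe sets, 1449731_s_at was called in the same directions in all 3 comparisons, and 1420089_at in none. Trib1, a pseudokinase of this group, was too dim to test (6.41 to 6.98).

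The small IER proteins are immediate-early products with regulatory roles, BTG proteins restrain proliferation, GADD45 proteins bind stress kinases and cell cycle regulators, and MCL1 keeps mitochondria from starting apoptosis. Of these 9 members, 5 were lower and 1 higher in the renal vesicle than in collecting duct, 3 lower and 2 higher in the s-shaped body, and between the nephron stages 5 were higher and 2 lower in the later stage. Btg2 read 8.51, 8.32 and 8.66 in the renal vesicle, 9.06, 8.73 and 8.78 in the s-shaped body, and 11.59, 11.38 and 11.29 in the collecting duct. The collecting duct stood far above both nephron stages, 7.59-fold over the renal vesicle (difference -2.92, SE 0.17, adjusted p = 1.59e-07) and 5.91-fold over the s-shaped body (adjusted p = 2.5e-07). A dimmer Btg2 probe set (1416250_at) gave smaller differences of -0.69 and -0.85 (adjusted p = 0.0311 and 0.0104 among all kept probe sets). Ier2 read 10.37, 10.30 and 9.94 in the renal vesicle, 9.73, 9.96 and 10.12 in the s-shaped body, and 11.71, 11.71 and 11.34 in the collecting duct. The collecting duct was again highest, with differences of -1.39 and -1.65 (SE 0.18, adjusted p = 0.000123 and 1.77e-05), and its nephron stages overlapped. Gadd45g read 8.55, 8.33 and 8.14 in the renal vesicle, 7.69, 7.44 and 7.53 in the s-shaped body, and 9.84, 9.61 and 9.62 in the collecting duct. Its structures did not overlap, with the s-shaped body lowest, 4.39-fold below the collecting duct (adjusted p = 1.04e-06) and -0.79 against the renal vesicle (SE 0.17, adjusted p = 0.00336), which in turn was -1.35 against the collecting duct (adjusted p = 8.41e-05).

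Gadd45a and Ier3 were highest in the s-shaped body. Gadd45a read 7.58, 7.13 and 8.68 in the renal vesicle, 11.04, 10.55 and 10.73 in the s-shaped body, and 7.55, 7.29 and 7.86 in the collecting duct. Only the s-shaped body was high, and renal vesicle replicate 3 stood above the other renal vesicle arrays. The s-shaped body was 7.86-fold above the renal vesicle (difference 2.98, SE 0.33, adjusted p = 2.53e-05) and 3.20 above the collecting duct (adjusted p = 8.01e-06), while renal vesicle and collecting duct overlapped (0.23, adjusted p = 0.635). Ier3 read 8.27, 8.34 and 8.24 in the renal vesicle, 10.36, 10.65 and 10.36 in the s-shaped body, and 9.61, 9.77 and 10.17 in the collecting duct. All structures were apart, with the renal vesicle lowest, 4.51-fold below the s-shaped body (SE 0.18, adjusted p = 3.36e-06) and 2.97-fold below the collecting duct (adjusted p = 4.19e-05). The excess of the s-shaped body over the collecting duct (0.60, adjusted p = 0.0229) was not called without s-shaped body replicate 2 (adjusted p = 0.101) or collecting duct replicate 1 or 2 (adjusted p = 0.0732 and 0.0779).

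Gadd45b read 7.91, 7.92 and 8.42 in the renal vesicle, 9.26, 9.64 and 9.80 in the s-shaped body, and 9.20, 9.73 and 10.47 in the collecting duct. Every renal vesicle array was below the rest, and the s-shaped body overlapped with the collecting duct. The renal vesicle differed by -1.72 from the collecting duct (SE 0.29, adjusted p = 0.000693), and the s-shaped body exceeded it by 1.49 (adjusted p = 0.00165), while a dimmer probe set (1420197_at) was called in no comparison. Ier5, which has been linked to HSF1, read 10.58, 10.53 and 10.73 in the renal vesicle, 9.89, 10.01 and 10.26 in the s-shaped body, and 9.88, 10.04 and 10.06 in the collecting duct. It was highest in the renal vesicle, 1.53-fold over the collecting duct (difference 0.62, SE 0.16, adjusted p = 0.0114), and the s-shaped body was lower than the renal vesicle (-0.56, adjusted p = 0.0162), a call lost without s-shaped body replicate 1 or 2 (adjusted p = 0.0628 and 0.0549).

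Btg1 read 11.06, 11.03 and 11.79 in the renal vesicle, 12.17, 11.91 and 11.82 in the s-shaped body, and 11.83, 11.95 and 11.55 in the collecting duct. Renal vesicle replicate 3 stood well above its other arrays. The s-shaped body was higher than the renal vesicle (0.67, SE 0.21, adjusted p = 0.0243), but not without renal vesicle replicate 1 or 2 or s-shaped body replicate 1 or 2 (adjusted p = 0.0559 to 0.11). A dimmer Btg1 probe set (1437455_a_at) gave 0.04 for that comparison. Without renal vesicle replicate 3, Btg1 was called lower in the renal vesicle than in collecting duct (-0.73, adjusted p = 0.00935). Mcl1 read 13.16, 13.30 and 13.36 in the renal vesicle, 13.90, 13.75 and 13.78 in the s-shaped body, and 13.45, 13.35 and 13.71 in the collecting duct. The s-shaped body was above the renal vesicle in every array (0.54, SE 0.12, adjusted p = 0.00346). Of its 6 kept probe sets 3 were called higher there, and 3 were not, among them 1448503_at (0.05, adjusted p = 0.851). With the probe set of largest variance the call was lost (0.43, adjusted p = 0.145). Against the collecting duct its probe sets went apart: among all kept probe sets 1456243_x_at gave 0.42 (adjusted p = 0.0426), and 1448503_at gave -0.49 (adjusted p = 0.0387), the only member with calls in both directions. The probe set shown for Mcl1 was not called there (0.31, adjusted p = 0.0636), but was without collecting duct replicate 3 (0.41, adjusted p = 0.0103).

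**Figure D3:**
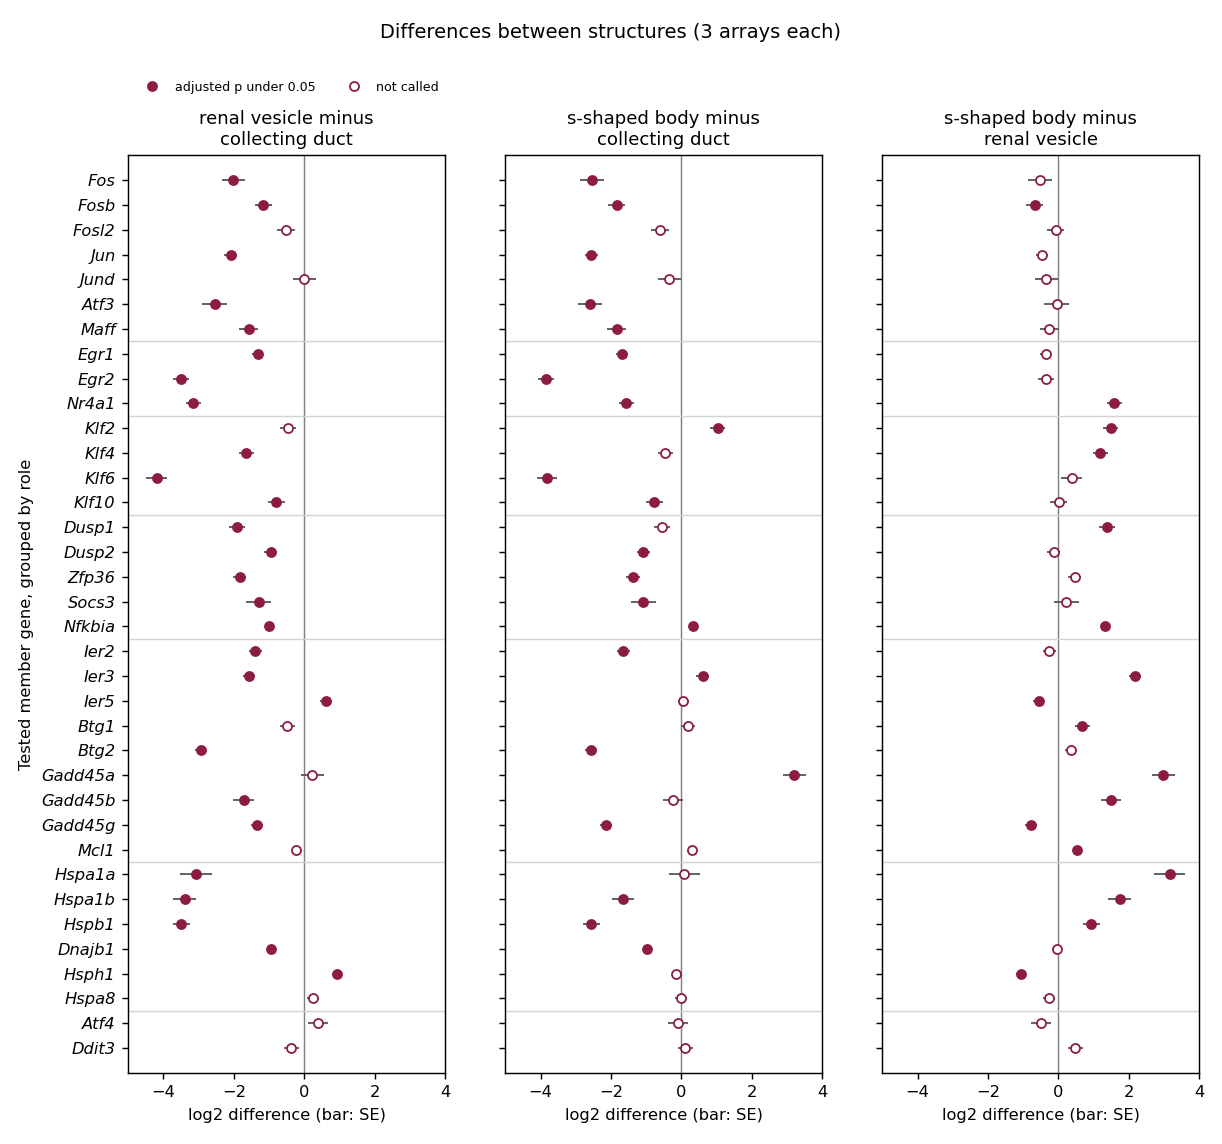
Log2 difference of each tested member (points) with its standard error (bars) in the 3 comparisons, 3 arrays per structure; filled points have an adjusted p under 0.05 and open points were not called. Most filled points lie left of 0 in both comparisons with the collecting duct, from Klf6 at -4.20 to Hsph1 at 0.92 for the renal vesicle, and 13 of the 17 filled points lie right of 0 between the nephron stages.

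The heat shock members refold or hold unfolded proteins, and they were called in both directions. Of the 6 tested, 4 were lower in the renal vesicle than in collecting duct and Hsph1 was higher, and 3 were lower in the s-shaped body. Hspb1, the small heat shock protein HSP27, read 8.11, 7.66 and 7.83 in the renal vesicle, 8.58, 8.73 and 9.12 in the s-shaped body, and 10.93, 11.31 and 11.86 in the collecting duct. The structures were fully apart in the order renal vesicle, s-shaped body, collecting duct. The collecting duct was 11.3-fold above the renal vesicle (SE 0.24, adjusted p = 5.62e-07) and 5.9-fold above the s-shaped body (adjusted p = 4.19e-06), and the s-shaped body exceeded the renal vesicle by 0.94 (adjusted p = 0.00934). Hspa1b read 8.90, 8.96 and 9.21 in the renal vesicle, 11.56, 10.82 and 9.91 in the s-shaped body, and 12.25, 12.34 and 12.68 in the collecting duct. It kept the same order without overlap, with s-shaped body replicate 1 well above replicate 3. The differences were -3.40 and -1.66 from the collecting duct (SE 0.32, adjusted p = 6.88e-06 and 0.00149) and 1.74 between the nephron stages (adjusted p = 0.00118).

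Hspa1a, the near-identical copy, read 6.10, 6.11 and 5.36 in the renal vesicle, 9.93, 9.02 and 8.10 in the s-shaped body, and 8.16, 8.98 and 9.66 in the collecting duct. The renal vesicle was far below, and the s-shaped body covered the range of the collecting duct. None of the renal vesicle arrays was above its median of 7.28, so the gene passed the filter only through the other structures and no fold is given. On the log2 scale the renal vesicle differed from the collecting duct by -3.08 (SE 0.45, adjusted p = 0.000239), and the s-shaped body exceeded it by 3.16 (adjusted p = 0.00017). Its s-shaped body level differed from the collecting duct by 0.08 (adjusted p = 0.909), where its copy Hspa1b was called lower. Since the 2 copies may share probes, how the signal splits between them is uncertain. Dnajb1, the HSP40 partner of HSP70, read 12.77, 12.91 and 12.99 in the renal vesicle, 13.02, 12.68 and 12.84 in the s-shaped body, and 13.76, 13.69 and 14.01 in the collecting duct. Only the collecting duct was apart, 1.91-fold and 1.96-fold above renal vesicle and s-shaped body (SE 0.13, adjusted p = 0.000179 and 8.55e-05).

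Hsph1, which encodes the HSP70 exchange factor HSP110, went the other way and read 12.27, 12.37 and 12.31 in the renal vesicle, 11.16, 11.35 and 11.23 in the s-shaped body, and 11.43, 11.33 and 11.41 in the collecting duct. The renal vesicle was high in every array, and the other structures overlapped. It was 1.89-fold above the collecting duct (difference 0.92, SE 0.13, adjusted p = 0.00018) and 2.1-fold above the s-shaped body (adjusted p = 5.14e-05). Hspa8, the constitutive HSC70, read 14.61, 14.65 and 14.61 in the renal vesicle, 14.63, 13.85 and 14.61 in the s-shaped body, and 14.30, 14.497 and 14.30 in the collecting duct. S-shaped body replicate 2 was the lowest array, and the gene was called in no comparison (0.25, -0.01 and -0.26, SE 0.17, adjusted p = 0.283, 0.986 and 0.261). Without that array the renal vesicle was called higher than the collecting duct (0.26, adjusted p = 0.049), and a dimmer probe set (1420622_a_at) gave 0.95 there (adjusted p = 0.00342). That dimmer probe set was also called lower in the s-shaped body than in the renal vesicle (-0.76, adjusted p = 0.0103). Another, 1420623_x_at, was called in no comparison.

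Atf4 and Ddit3 (CHOP), factors of the integrated stress response, did not pass the test in any comparison. Atf4 read 11.90, 12.26 and 12.38 in the renal vesicle, 11.94, 11.33 and 11.78 in the s-shaped body, and 11.25, 11.57 and 12.52 in the collecting duct. The collecting duct arrays spanned most of the range, and Atf4 was called higher in the renal vesicle without collecting duct replicate 3 (0.76, adjusted p = 0.014). Without that array it was also called lower in the s-shaped body than in the renal vesicle (-0.49, adjusted p = 0.0496). Ddit3 read 7.53, 7.28 and 6.97 in the renal vesicle, 7.68, 7.54 and 7.99 in the s-shaped body, and 7.39, 7.80 and 7.69 in the collecting duct. Its structures lay close together, and the largest difference was that between the nephron stages (0.47, SE 0.22, adjusted p = 0.11). Hmox1, an oxidative stress enzyme, was too dim to test (5.12 to 7.19).

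Cyr61 and Ctgf encode matricellular proteins, which are secreted to the matrix around cells and are known targets of SRF and of the YAP and TEAD factors. Cyr61 (Ccn1) read 10.96, 10.43 and 10.64 in the renal vesicle, 10.20, 9.44 and 9.98 in the s-shaped body, and 12.86, 12.73 and 12.84 in the collecting duct. Its structures did not overlap, and as in Fosb and Jun the s-shaped body was lowest. It was 4.41-fold higher in the collecting duct than in the renal vesicle (difference -2.14, SE 0.21, adjusted p = 8.65e-06) and 7.67-fold higher than in the s-shaped body (adjusted p = 3.74e-07), and the nephron stages differed by -0.80 (adjusted p = 0.00928). Ctgf (Ccn2) read 8.29, 8.43 and 9.18 in the renal vesicle, 11.32, 11.20 and 10.98 in the s-shaped body, and 9.41, 9.82 and 10.89 in the collecting duct. Here the s-shaped body was highest and the renal vesicle lowest, without overlap, and collecting duct replicate 3 stood above its other arrays. The s-shaped body exceeded the renal vesicle 5.8-fold (difference 2.53, SE 0.34, adjusted p = 0.000108), and the renal vesicle differed from the collecting duct by -1.41 (adjusted p = 0.00705). Ctgf was also higher in the s-shaped body than in collecting duct (1.13, adjusted p = 0.022), a call lost without s-shaped body replicate 1 or 2 or collecting duct replicate 1 or 2 (adjusted p = 0.0644 to 0.0804). With these genes counted, 27 of 38 were lower and 2 higher in the renal vesicle than in collecting duct, 20 and 5 in the s-shaped body, and between the nephron stages 14 rose and 5 fell in the later one.

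In the collecting duct and the s-shaped body the members were more often high or low in the same array than all genes were. Collecting duct replicate 3 was the highest of its structure for 23 of the 36 members, against 42.4% of all genes, and collecting duct replicate 1 the lowest for 22, against 37.7%. In the s-shaped body, replicate 1 was the highest for 21 members (33% of all genes) and replicate 2 the lowest for 22 (31.4%). In the renal vesicle the counts lay nearer the shares of all genes, with replicates 1 to 3 the highest for 11, 11 and 14 members against 29.6%, 29.6% and 40.9%. The members' median deviation from their structure's mean was 0.23 in collecting duct replicate 3 and -0.16 in replicate 1, between -0.13 and 0.17 in the s-shaped body, and -0.01, 0.01 and -0.01 in the renal vesicle. From the mean over all 9 arrays, the members' medians were -0.46, -0.52 and -0.55 in the renal vesicle, -0.14, -0.45 and -0.21 in the s-shaped body, and 0.41, 0.79 and 1.07 in the collecting duct. The collecting duct stood apart, while the nephron stages all but met, at -0.455 in renal vesicle replicate 1 and -0.450 in s-shaped body replicate 2. The median SD over arrays was 0.18 for the members and 0.19 for all genes in the renal vesicle, 0.24 and 0.19 in the s-shaped body, and 0.28 and 0.26 in the collecting duct.

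**Figure D4:**
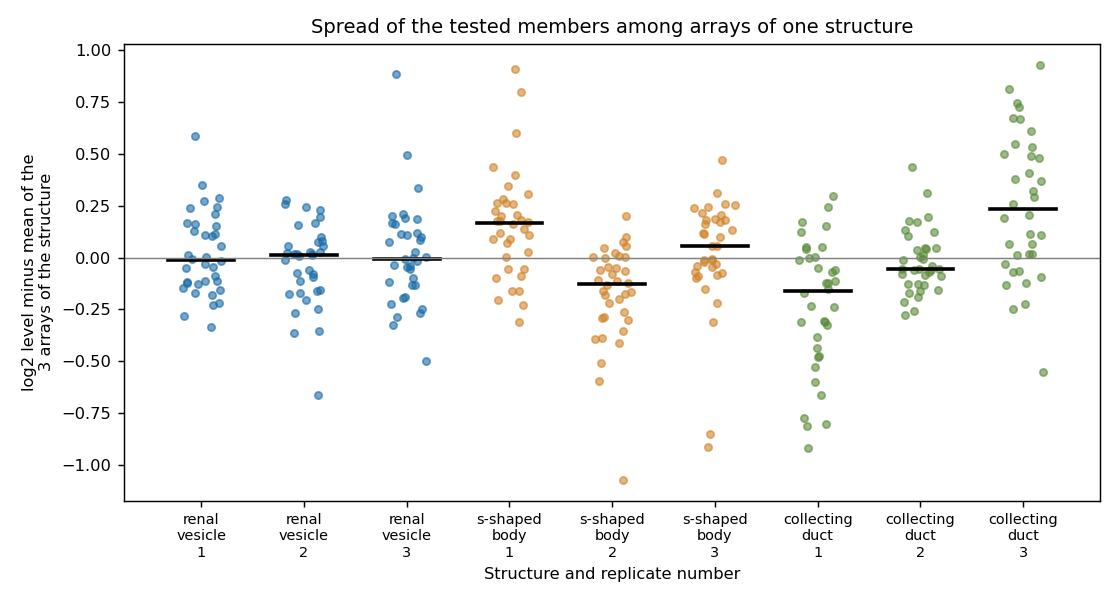
Log2 level of the 36 tested members (points, spread sideways for sight) in each array, minus the member's mean over the 3 arrays of its structure; black bars are medians. The medians run from -0.16 in collecting duct replicate 1 to 0.23 in collecting duct replicate 3, and are -0.01, 0.01 and -0.01 in the renal vesicle.

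The 3'/5' signal ratio of Gapdh, which is higher for shorter RNA, was 12.0, 13.3 and 14.54 in the renal vesicle, 24.4, 20.0 and 32.4 in the s-shaped body, and 18.6, 14.6 and 11.6 in the collecting duct. The lowest ratio was that of replicate 3 in the collecting duct, where the members were highest, and that of replicate 2 in the s-shaped body, where they were lowest. The ratio of Actb was 32.3, 32.2 and 41.2 in the renal vesicle, 30.9, 30.1 and 50.9 in the s-shaped body, and 42.5, 34.1 and 37.4 in the collecting duct, lowest in replicate 2 of each structure. Urothelial markers were high in the collecting duct alone, and 3 of the 4 tested were lower in both nephron structures. Where Gadd45a, Ier3, Nfkbia, Klf2 and Ctgf were called higher in the s-shaped body, markers of other cells were too. Against the renal vesicle 7 of 8 stromal, 4 of 4 erythroid and 2 of 2 leukocyte markers tested were higher there, and against the collecting duct 8, 4 and 2. Stromal markers summed to 22581.5 to 27419.8 there against 1539.9 to 2999 in the renal vesicle and 756 to 1150.3 in the collecting duct. Erythroid markers summed to 21450.0 to 23989 against 453 to 2737 and 59.5 to 2418.5, and leukocyte markers to 4154 to 4590.2 against 222 to 399 and 848 to 1549, with Dcn, Lum, Hba-a1, Epb42, Ptprc, Cd68, Lyz2, Tyrobp, Fcer1g, C1qa and C1qb too dim to test. The part of RNA length and of these cells in the members' differences was not tested.

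Other immediate-early genes, which are not members, were called in both directions. Of 26 tested of 40, 11 were lower and 3 higher in the renal vesicle than in collecting duct (53.8% called, against 31.5% of all genes), with a median of -0.50. The EGF receptor feedback inhibitor gene Errfi1 was 6.91-fold higher in the collecting duct (SE 0.16, adjusted p = 9.64e-08). Klf5 differed by -3.14 (SE 0.23, adjusted p = 8.78e-07), from nephron levels that were above the array median in 0 of 6 arrays. In the s-shaped body 13 were lower and 5 higher than in collecting duct (69.2% called, against 32.8%), among the latter Sgk1, a glucocorticoid-induced kinase (4.44, SE 0.26, adjusted p = 1.05e-07). Between the nephron stages 8 were higher in the s-shaped body and 3 lower, with Sgk1 (3.46), the kinase gene Plk2 (1.95) and the EGF receptor ligand gene Hbegf (1.78, from renal vesicle levels below the array median) among the higher. That is 42.3% called, against 36.3% of all genes.

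For genes that carry the signal, the share called was near that of all genes. Of 18 tested of 30 SRF, MAP kinase and CREB pathway genes, 4 were higher and 3 lower in the renal vesicle than in collecting duct, and in the s-shaped body 4 were higher and 1 was lower. These are 38.9% and 27.8% of the list, against 31.5% and 32.8% of all genes. The lower one was Srf itself (-0.53, SE 0.18, adjusted p = 0.0432). Elk3, a ternary complex factor known in endothelium, differed by -1.11 in the renal vesicle (SE 0.18, adjusted p = 0.000539) and by 1.48 in the s-shaped body (adjusted p = 3.84e-05).

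Further chaperone and unfolded protein genes were called in both directions. The share of chaperones called in the renal vesicle against the collecting duct was close to that of all genes. Of 19 tested of 24 further HSF1 targets and chaperones, 5 were higher and 1 lower in the renal vesicle than in collecting duct. That is 31.6% called, against 31.5% of all genes, with a median of 0.35. Of all genes 15.6% were higher and 15.9% lower in this comparison. With 6 of 19 genes called, these counts are not a result about the chaperone list. Among the higher were the mitochondrial HSP70 gene Hspa9 (0.90, SE 0.15, adjusted p = 0.000624) and Hsp90aa1 (0.55, SE 0.14, adjusted p = 0.00862). In the s-shaped body 2 were higher and 3 lower than in collecting duct (26.3% called, against 32.8% of all genes). The higher ones were the small heat shock genes Cryab (4.68, SE 0.57, adjusted p = 3.96e-05) and Hspb8 (1.99, SE 0.19, adjusted p = 4.97e-06), neither above the median in any collecting duct array. Between the nephron stages 3 of the chaperone list were higher in the s-shaped body and 7 lower (52.6% called, against 36.3% of all genes). Of 20 tested of 25 genes of the unfolded protein and amino acid response, 8 were higher and 1 lower in the renal vesicle than in collecting duct. In the s-shaped body 9 were higher and 1 was lower. These are 45% and 50% called, against 31.5% and 32.8% of all genes. In the same comparisons 15.6% and 16.9% of all genes were higher, and 15.9% were lower in each. Pdia4, an endoplasmic reticulum disulfide isomerase gene, was higher by 1.29 and 2.22 (SE 0.19, adjusted p = 0.000318 and 2.26e-06), and the lower gene in both was Ddit4, an mTOR inhibitor gene induced by stress (-2.08 and -1.15, SE 0.32, adjusted p = 0.000333 and 0.0142).

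The oxidative response genes called against the collecting duct were all lower, but few genes of this list were tested. Of 15 tested of 19 NRF2 and oxidative response genes, 6 were lower and 0 higher in the renal vesicle than in collecting duct, and 4 lower and 0 higher in the s-shaped body (40% and 26.7% called, against 31.5% and 32.8% of all genes). Of all genes 15.9% were lower in each comparison, and 15.6% and 16.9% were higher. With so few genes these counts are not a result about the list. Among the genes called was Nfe2l2, which encodes NRF2 (-1.70 and -1.09, SE 0.29, adjusted p = 0.000704 and 0.0113). Of 9 tested of 13 p53 response genes, 2 were lower and 1 higher in the renal vesicle, and 2 lower and 2 higher in the s-shaped body. With 3 and 4 of 9 genes called (33.3% and 44.4%), these shares are not a result about the list. Cdkn1a, the p21 cell cycle inhibitor gene, was lower in both (-1.35 and -1.66, SE 0.26, adjusted p = 0.00202 and 0.000344).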

How the data were processed

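Per the labels' protocols, total RNA of each microdissected sample was extracted with TRIzol, amplified in 2 rounds with an Arcturus kit and hybridized to 1 of 9 arrays. The deposited values are intensity on a linear scale, 1 per probe set and array. They come from GCOS, per the submitters' processing notes, whose version, algorithm and scaling target are not given in the sources used here. Here 26 (the 20th percentile) was added, log2 taken and arrays quantile normalized, because array medians differed by 0.31. The added constant understates differences of dim genes. Probe sets above their array's median in at least 3 of 9 arrays were kept, and the brightest probe set with exactly 1 symbol stood for each gene. All 64 control probe sets were left out of the tests. A linear model over the 9 arrays (limma 3.58.1 under R 4.3.3: lmFit, then eBayes with trend; 6 residual degrees of freedom; two-sided) gave each difference, p-values were adjusted by Benjamini-Hochberg over 7998 genes within a comparison, and the procedure was tested on simulated data of 7998 genes. There 50 genes were changed at each size of difference, far fewer than the 31.5% or more of genes called in the data. In the simulated data the share of calls that were false was 5.43% for renal vesicle against collecting duct. It was 8.03% for s-shaped body against collecting duct and 5.6% for s-shaped body against renal vesicle. True log2 differences of 0.5 were called in 6%, 2% and 8% of cases and of 1 in 50%, 70% and 52%. The adjusted p depends on how many genes change, so these rates do not describe the comparisons in the data. Values in every array are given for every tested member, ranges for dim members, and for other lists called genes with the smallest adjusted p. The members and lists were chosen with earlier results of these data known. Cyr61 and Ctgf, which the platform table names Ccn1 and Ccn2, were matched through RefSeq synonyms after the data were seen.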

Additional observations from a re-analysis of the deposited data

How the results depend on the processing

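The 21 alternatives changed the pseudocount, the normalization (median centring or none further), the filter (none, or signal above the median in all 9 arrays), the probe set, the trend, the array weights, the samples fitted and the replicate block, or left out each of the 9 arrays. No called difference of a member changed direction in any of them, and of 114 values (36 members and the 2 genes of newer symbol, in 3 comparisons) 96 were recomputed in all, of which 71 kept their side of the threshold. The other 18 belong to Ddit3, Fosb, Gadd45a, Hspa1a, Klf2 and Maff, which the stricter filter leaves out, and 14 of them kept it where recomputed. With no filter the median member difference was -1.08 for renal vesicle against collecting duct and -0.57 for s-shaped body against collecting duct. The stricter filter gave 2 members called higher and 1578 genes called for s-shaped body against collecting duct, since fewer genes were tested. Array weights, whose estimation stopped before reaching its tolerance, gave 4747 genes called for renal vesicle against collecting duct, 4508 for s-shaped body against collecting duct and 8 members lower for s-shaped body against renal vesicle, and the cause was not tested.

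On leaving out 1 array, the members called for renal vesicle against collecting duct numbered 2 to 3 higher and 23 to 26 lower, with medians from -1.42 to -1.25 and 1964 to 2605 genes called. For s-shaped body against collecting duct they numbered 2 to 5 higher and 17 to 21 lower, with medians from -0.995 to -0.77 and 2105 to 2798 genes. For s-shaped body against renal vesicle they numbered 12 to 13 higher and 2 to 6 lower, with medians from -0.04 to 0.22 and 2218 to 3400 genes, so the sign of that median is not stable. Median centring ended the calls of Klf10 against the collecting duct in both nephron structures, of Nfkbia for s-shaped body against collecting duct, and of Btg1 and Mcl1 between the nephron stages, where Jun and Egr1 were then called lower.

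Same-numbered arrays of different structures correlated in their deviations at -0.03 to 0.16, with 5 of 9 pairs over 0.1. Differently numbered arrays correlated at -0.155 to 0.149, with only renal vesicle replicate 1 and s-shaped body replicate 2 over 0.1. The rule asked for all 9 same-numbered pairs to be over 0.1, so the numbers were not taken to pair the samples. Whether arrays of the same number share a factor was not tested. With a replicate block the members called were the same, 2 higher and 25 lower, 4 and 19, and 13 and 4 in the 3 comparisons, among 2605, 2646 and 2997 genes called.

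The limits are 3 arrays per structure, no detection calls, and 1 probe set per gene, where 17 members had several. Dim members have only a range of levels. Structure, pool size and handling cannot be told apart.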
